A study of Mus musculus with 6 samples.

Results

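The 9 genes described here belong to the B-lymphocyte lineage and were followed in cultures of bone marrow-derived macrophages (BMDMs), namely Cd79a, Cd79b, Ms4a1, Ebf1, Pax5, Vpreb1, Vpreb3, Igll1 and Blk. They were chosen by symbol, with the genotype comparison and the levels of these libraries already known, so their counts, levels and genotype differences are descriptions and carry no test. Of the 9 genes, 7 had a row among the 23935 gene symbols of the deposited tables. Vpreb3 and Igll1 had no row there and are not analysed here.

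BMDMs are macrophages grown from marrow of the femur and tibia, here for 7 days in M-CSF, the growth factor of macrophages. All cultures were then primed for 16 h with 10 ng/mL LPS, a component of bacterial outer membranes, and 25 ng/mL IFN-γ, a cytokine of T and NK cells. In all, 3 cultures came from PKM2FL/FL mice, in which the gene of pyruvate kinase M2 is floxed, and 3 from PKM2ΔMAC littermates, which carry the same floxed gene together with LysM-Cre. With 1 library per mouse, RNA sequencing compared the genotypes, and no unprimed culture and no culture of B cells is used here. LysM-Cre sits in the Lyz2 locus and is active in granulocytes as well as macrophages, the controls carried no Cre, and age is not given in the sources used here for the mice of these libraries. The study's methods name male mice for BMDMs treated in the same way for flow cytometry, and sex is not given for the sequenced cultures.

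B lymphocytes arise in bone marrow, the starting material of these cultures. Ebf1 and Pax5 are the transcription factors that commit progenitors to the lineage and keep them in it. Vpreb1 and Igll1 form the surrogate light chain that a pre-B cell carries before it has made a true light chain, and Vpreb3 is a related protein of the same stage. Cd79a and Cd79b encode the paired signalling chains of the B-cell receptor, Blk is a Src-family kinase acting below that receptor, and Ms4a1 encodes CD20, a surface protein of mature B cells. Early B cells depend on IL-7 rather than M-CSF for growth. Ebf1 is also active outside the lineage, in marrow stromal and fat-forming cells.

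Cd79a and Vpreb1 stand for the receptor and its precursor form, and their promoters are shown because both hold an E-box and an ETS core, motifs bound by the E2A and PU.1 families of factors. The windows run from 250 bases before to 50 bases after the start of the gene in RefSeq on GRCm38.p6, and capitals mark CAGGTG and GAGGAA on either strand.
Cd79a, chr7:24897247-24897546, plus strand: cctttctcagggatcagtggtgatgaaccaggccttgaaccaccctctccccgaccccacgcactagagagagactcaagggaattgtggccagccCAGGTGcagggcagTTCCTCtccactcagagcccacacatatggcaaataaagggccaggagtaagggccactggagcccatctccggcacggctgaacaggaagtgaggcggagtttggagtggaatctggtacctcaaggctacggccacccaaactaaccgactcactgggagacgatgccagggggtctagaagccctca
Vpreb1, chr16:16869206-16869505, minus strand: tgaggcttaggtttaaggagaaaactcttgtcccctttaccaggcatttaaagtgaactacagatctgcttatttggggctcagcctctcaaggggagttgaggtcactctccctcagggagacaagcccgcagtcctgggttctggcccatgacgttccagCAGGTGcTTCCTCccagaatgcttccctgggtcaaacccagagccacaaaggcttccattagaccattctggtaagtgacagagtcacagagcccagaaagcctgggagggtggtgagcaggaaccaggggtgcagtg
The E-box began 154 bases and the ETS core 140 bases before the RefSeq start of Cd79a, and 88 and 81 bases before that of Vpreb1. In GENCODE M21, the source of the gene positions below, Vpreb1 spans chr16:16868403-16870843 on the minus strand. Its window therefore lies inside that span and not before its start, and the windows of Ebf1 and Vpreb3 also lie inside their GENCODE spans. CAGGTG occurred in 20.2% of all 32851 promoter windows of this length, GAGGAA in 28.3% and both together in 5.45%. The letters CCCNNGGG, the core bound by Ebf1 itself, occurred in 13.7% of windows and in 1 of the 7 windows of the listed genes, that of Igll1. The window of Igll1, a gene with no values here, held an E-box and an ETS core as well. The octamer ATGCAAAT, found in 1.74% of windows, occurred in that of Vpreb3 alone. The window of Pax5 and the first window of Ebf1 held none of these motifs. In all, 6 of the genes matched the table, Ebf1 with 2 windows, and Cd79b, Ms4a1 and Blk did not.

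The libraries held between 49957449 and 54524651 counts, and 3 counts, taken as the detection limit, corresponded to between 0.0546 and 0.0604 CPM, that is counts scaled to library size. In the genotype model over all genes, 68 of 16516 tested genes were called at an adjusted p under 0.05 by edgeR's quasi-likelihood test, which is 0.412% of them. Pkm, the targeted gene, counted over the gene and not over the floxed exon, was at 1714, 1698 and 1705 CPM in PKM2FL/FL and at 987, 1212 and 1005 CPM in PKM2ΔMAC. Lyz2, the Cre locus, was at 17006 CPM or more in each PKM2FL/FL library and at 31.8 CPM or less in each PKM2ΔMAC library. PKM2ΔMAC 2 stood apart from the other libraries of its genotype, since chi-square over its degrees of freedom was 43.1 and 53.8 against them and between 7.55 and 13.7 for the other same-genotype pairs, and 299 genes were called without it. The summed level of 10 macrophage markers was between 10429 and 11345 CPM, with Csf1r, the M-CSF receptor, between 1825 and 2482 TPM, a unit that allows for gene length as well as library size.

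All 7 genes with a row were counted somewhere, and 6 of them were low. Over the 42 values of 7 genes in 6 libraries, 38 exceeded 3 counts and 25 exceeded 10. Cd79a, Cd79b and Ebf1 exceeded 10 counts in every library, Ms4a1 exceeded 3 in every library, and Pax5, Vpreb1 and Blk each fell to 3 counts or fewer in at least 1 library. The values just outside the limit were 3 counts of Vpreb1 and 2 of Pax5, and those just inside it were 4 counts, seen for Pax5 in 1 library and for Blk in 3. Between 5 and 7 genes per library were over the limit, with the lowest number in PKM2ΔMAC 1, where Pax5 and Blk were both at 0. A count of 0 in that library allows up to 3 counts, or 0.0565 CPM, by counting error alone.

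**Figure D1:**
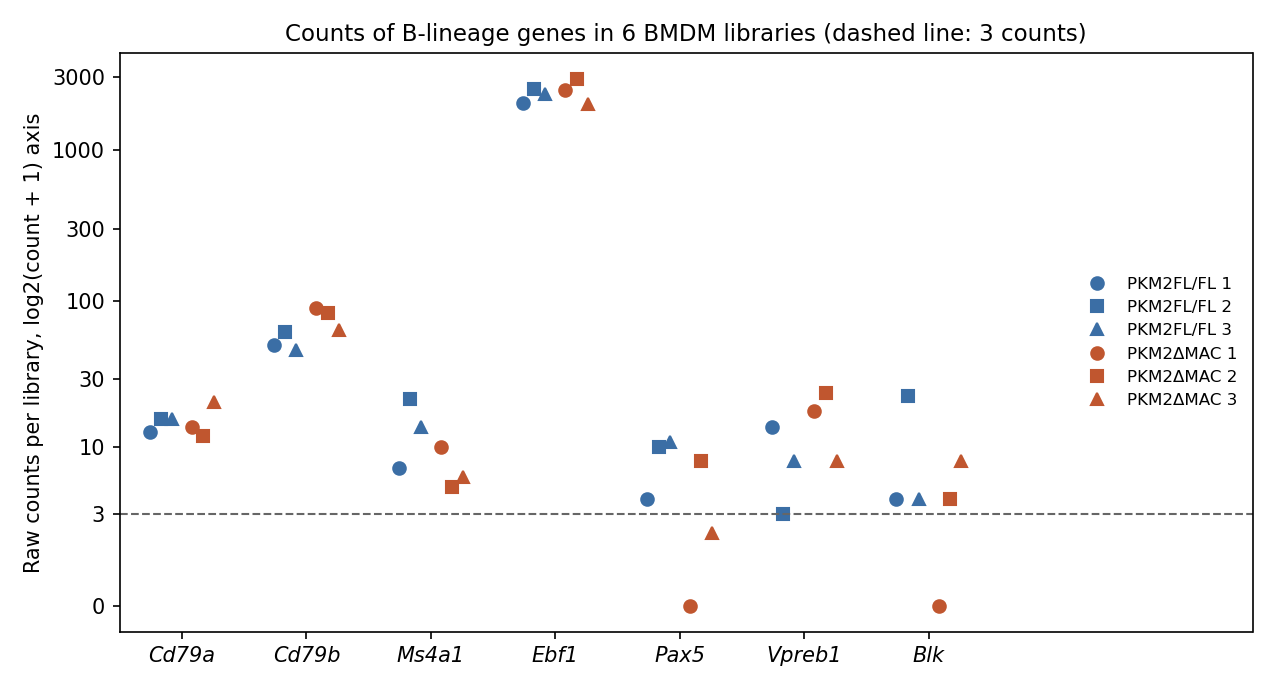
Raw counts of the 7 B-lineage genes in each library on a log2(count + 1) axis; blue symbols are the 3 PKM2FL/FL and orange symbols the 3 PKM2ΔMAC libraries, and the dashed line marks 3 counts. Ebf1 lies between 2008 and 2918 counts, Cd79b between 47 and 90, and the other 5 genes at 24 counts or fewer.

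Small counts in these tables were mostly even. Of the values from 1 to 10 over all genes 71.1% were even, against 50.3% of those from 51 to 200, and among the 15 values of 1 to 10 of the B-lineage genes 12 were even. Whether single reads or read pairs were counted is not given in the sources used here, so a count of 4 may stand for fewer than 4 fragments.

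Ebf1, the earliest of these lineage factors (chr11:44617317-45008091, plus strand, 17 exon blocks; all gene positions are from GENCODE M21 on GRCm38), was far above the rest. It had 2025, 2522 and 2352 counts in PKM2FL/FL 1 to 3 and 2495, 2918 and 2008 counts in PKM2ΔMAC 1 to 3. The genotypes overlapped, and both the highest and the lowest count came from PKM2ΔMAC libraries, 2 and 3. Scaled to depth, Ebf1 averaged 44.3 ± 5.59 CPM in the controls against 46.9 ± 6.34 CPM (SD, n = 3 each), and the fitted log2 fold change was 0.08 with an SE of 0.13. Its sign turned in 2 of 16 alternative fits, being -0.02 without PKM2FL/FL 1 and -0.01 without PKM2ΔMAC 2. Ebf1 made up 77.2% ± 2.66 of the summed TPM of the 7 genes (SD, n = 6), so their sum in TPM is close to a measure of Ebf1.

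Pax5, the factor that holds B-cell identity (chr4:44524757-44710487, minus strand), did not follow Ebf1 in level. It had 4, 10 and 11 counts in PKM2FL/FL and 0, 8 and 2 in PKM2ΔMAC. The control libraries were the higher on average, at 0.161 ± 0.0758 against 0.0620 ± 0.0752 CPM (SD, n = 3 each), but PKM2ΔMAC 2 lay above PKM2FL/FL 1. The PKM2ΔMAC mean of 3.33 counts was 1 count without PKM2ΔMAC 2 and 5 counts without PKM2ΔMAC 1. In TPM, Ebf1 averaged 16.8 and Pax5 0.0452 over the 6 libraries. Exons of Pax5 overlap those of 5730488B01Rik by 636 bases and of Gm12462 by 125 bases on the opposite strand, and the strand setting of the counting is not given in the sources used here.

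Vpreb1, the variable-like part of the surrogate light chain (chr16:16868403-16870843, minus strand), had 14, 3 and 8 counts in PKM2FL/FL and 18, 24 and 8 counts in PKM2ΔMAC. The genotypes overlapped, since PKM2ΔMAC 3 equalled PKM2FL/FL 3 in counts and lay below PKM2FL/FL 1. Means were 0.159 ± 0.102 and 0.313 ± 0.140 CPM (SD, n = 3 each), with a log2 fold change of 0.97 (SE 0.61). Single libraries moved that value, to 1.53 without PKM2FL/FL 1, to 0.57 without PKM2FL/FL 2 and to 0.65 without PKM2ΔMAC 2, and it was 0.42 with limma on log2(TPM + 1), a scale that understates low genes. An exon of Vpreb1 shares 94 bases with Top3b on the opposite strand, a topoisomerase gene at between 2062 and 2198 counts, so reads of the shared stretch cannot be told apart without strand.

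The receptor chains differed from each other. Cd79a (chr7:24897381-24902197, plus strand) had 13, 16 and 16 counts in PKM2FL/FL and 14, 12 and 21 in PKM2ΔMAC. Both the highest and the lowest library were PKM2ΔMAC, and the log2 fold change of 0.06 (SE 0.42) became -0.05 without PKM2FL/FL 1, -0.26 without PKM2ΔMAC 3 and 0.25 without PKM2ΔMAC 2.

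Cd79b (chr11:106311341-106314762, minus strand) had 51, 62 and 47 counts in PKM2FL/FL and 90, 84 and 64 in PKM2ΔMAC. It was the one gene of the 7 whose genotypes did not overlap, and the gap between PKM2FL/FL 2 at 62 counts and PKM2ΔMAC 3 at 64 counts was small. The means were 1.02 ± 0.147 and 1.51 ± 0.204 CPM (SD, n = 3 each), 1.47-fold apart by the fitted log2 fold change of 0.55 (SE 0.22). That log2 value lay between 0.46 and 0.68 in the 16 alternative fits. Over all tested genes, 8.92% did not overlap with PKM2ΔMAC higher and 8.32% with PKM2ΔMAC lower. The ratio of Cd79b to Cd79a in TPM ran from 2.99 in PKM2FL/FL 3 to 7.13 in PKM2ΔMAC 2, and in PKM2ΔMAC 3 it was 3.10, a ratio that rests on between 12 and 21 counts of Cd79a.

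Ms4a1, encoding CD20 (chr19:11249675-11266241, minus strand), had 7, 22 and 14 counts in PKM2FL/FL and 10, 5 and 6 in PKM2ΔMAC. PKM2FL/FL 2 and 3 were the highest libraries and PKM2FL/FL 1 lay within the range of PKM2ΔMAC. Control libraries averaged 0.277 ± 0.146 CPM against 0.134 ± 0.0499 CPM (SD, n = 3 each).

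Blk, the receptor-proximal kinase (chr14:63372836-63417037, minus strand), had 4, 23 and 4 counts in PKM2FL/FL and 0, 4 and 8 in PKM2ΔMAC. A single library set its control mean, which was 10.3 counts with PKM2FL/FL 2 and 4 counts without it, against 4 counts in PKM2ΔMAC, or 2 without PKM2ΔMAC 3 and 6 without PKM2ΔMAC 1. PKM2FL/FL 2 was also the highest library for Ms4a1 and the lowest for Vpreb1.

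Of the 7 genes, Cd79a, Cd79b, Ebf1 and Vpreb1 passed the filter on low counts and Ms4a1, Pax5 and Blk did not. In the genotype model 0 of these 4 were called by edgeR, 1 of 4, Cd79b, had an unadjusted p under 0.05, and DESeq2 and limma also called 0. Of all tested genes, edgeR called 0.285% higher in PKM2ΔMAC and 0.127% lower, DESeq2 called 1.83%, and 9.83% had an unadjusted p under 0.05 by edgeR. The 1 member under that unadjusted threshold became 0 with the replicate block and when PKM2FL/FL 1, PKM2FL/FL 3, PKM2ΔMAC 1 or PKM2ΔMAC 2 was left out. These numbers describe the 4 genes and nothing is read from them, because the genes were chosen with this contrast known. The median log2 fold change of the 4 was 0.32, beside -0.0002 over all tested genes. Without the filter the other 3 stood at -1.04 for Ms4a1 (SE 0.64), -1.33 for Pax5 (SE 1.02) and -1.34 for Blk (SE 1.05). The fitted values thus lay on both sides of 0, the negative ones only among genes that failed the filter. That of Blk rests on PKM2FL/FL 2. In a bulk sample, fewer cells of a type and less RNA per cell cannot be told apart.

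**Figure D2:**
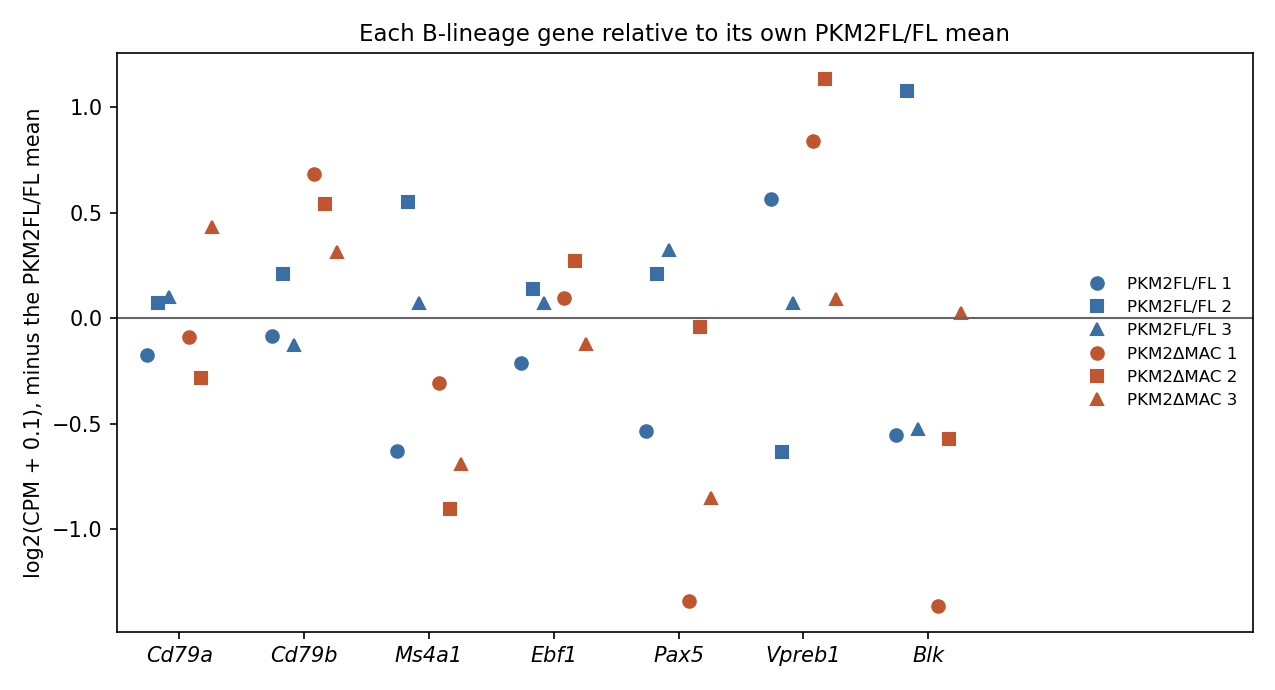
Each gene's log2(CPM + 0.1) in each library, minus its own PKM2FL/FL mean (line at 0); blue symbols are PKM2FL/FL and orange symbols PKM2ΔMAC libraries. Only Cd79b has all 3 PKM2ΔMAC libraries above all 3 PKM2FL/FL libraries, from 0.31 to 0.68, and Blk ranges from -1.36 to 1.08.

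On the TPM scale the order of mean levels was Ebf1 at 16.8, Cd79b at 3.19, Cd79a at 0.726, Vpreb1 at 0.715, Blk at 0.183, Ms4a1 at 0.118 and Pax5 at 0.0452. Ebf1 and Cd79b did not overlap over the 6 libraries, with Ebf1 from 13.5 to 20.8 and Cd79b from 2.25 to 4.30 TPM, nor did Cd79b and Cd79a, which reached at most 1.05 TPM. Every later pair of neighbours overlapped, and Cd79a exceeded Vpreb1 in 3 of the 6 libraries. Against the macrophage marker Csf1r, Ebf1 was between 111 and 141 times lower in TPM and Cd79b between 453 and 873 times lower.

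No shared rise and fall of the 7 genes was seen from library to library. Counting error at 24 counts or fewer could hide such a movement, so its absence is not shown. Each library except PKM2FL/FL 1 was the highest for at least 1 gene, with PKM2FL/FL 2 and PKM2ΔMAC 2 the highest for 2 each, and PKM2ΔMAC 2 was also the lowest for 2, Cd79a and Ms4a1. Pearson's r of log2(CPM + 0.1) over the 6 libraries had a median of 0.03 over the 21 pairs of the 7 genes, with 11 pairs above 0 and 10 below. For the 6 pairs of the 4 genes that passed the filter the median was -0.02, from -0.64 for Cd79a and Vpreb1 to 0.52 for Cd79b and Ebf1. This median had no stable sign, at 0.04 with a pseudocount of 1, 0.19 without PKM2FL/FL 2, and between -0.10 and 0.03 without each of the other libraries. The extremes over all pairs were -0.84 for Vpreb1 and Blk and 0.55 for Pax5 and Blk, the last of which share PKM2ΔMAC 1 at 0 counts. These r values are descriptions over the same 6 libraries, 3 of each genotype, and every pair but Cd79b with Ebf1 includes a gene at 24 counts or fewer.

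**Figure D3:**
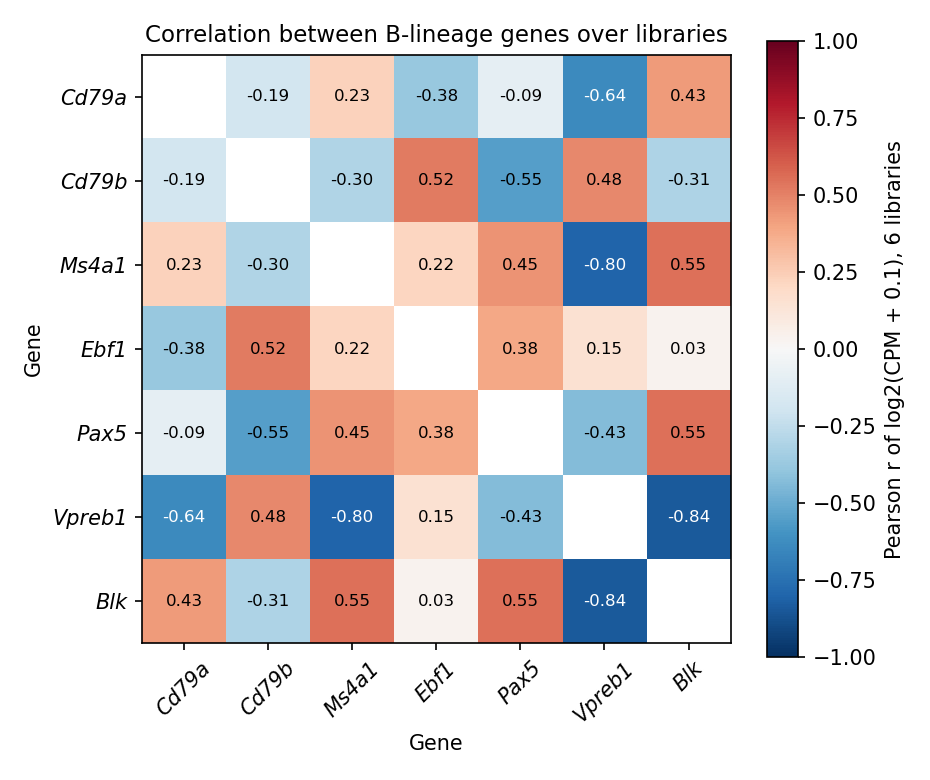
Pearson's r of log2(CPM + 0.1) over the 6 libraries for each pair of the 7 B-lineage genes, red above 0 and blue below. Of the 21 pairs, 11 are positive and 10 negative, between -0.84 for Vpreb1 with Blk and 0.55 for Pax5 with Blk.

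Summed without Ebf1, the 6 low genes had 93, 136 and 100 counts in PKM2FL/FL and 132, 137 and 109 in PKM2ΔMAC, which overlapped. Without Cd79b as well, the sums were 42, 74 and 53 against 42, 53 and 45 counts, and the highest was then PKM2FL/FL 2.

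The gene most like the summed CPM of the 7 genes was Islr, with r of 0.994 over the 6 libraries, followed by Lzts1, Setdb1, Pxk, Grin3b, 2310011J03Rik, Zbed3, Pdss2, Gm29340 and Alkbh8, the last at 0.982. This likeness is to Ebf1, whose own r with the sum was 0.9993. Of 16512 genes compared, 179 had r over 0.9, and 0 of the 10 named genes remained among the top 10 when Ebf1 was left out of the sum or when log2 values were summed in place of CPM.

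Other genes of the lineage were read from 6 lists written from general knowledge, with 90 genes, of which 86 had a row and 73 were tested. By edgeR 0 of the 73 were called in either direction, 16 had an unadjusted p under 0.05 (13 higher and 3 lower in PKM2ΔMAC), DESeq2 called 5 and limma 0. Over all tested genes, 5.24% had such an unadjusted p with PKM2ΔMAC higher and 4.6% with it lower, and DESeq2 called 1.83%. Their median log2 fold change was 0.002, and 14 did not overlap with PKM2ΔMAC higher and 3 with PKM2ΔMAC lower, beside 8.92% and 8.32% of all tested genes. The 5 genes called by DESeq2 were Ighg1, Fcrl5, Ighg2c, Igha and Jchain, the last 3 named after their values were seen, all higher in PKM2ΔMAC.

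Early B-cell genes (8 tested, median -0.03), lineage transcription factors (17 tested, 0.01), receptor signalling (19 tested, -0.04), mature surface genes (14 tested, -0.01) and plasma cell genes (6 tested, -0.05) centred near 0 on the log2 scale. Among the early genes, Il7r, the receptor of the lymphoid growth factor IL-7, had between 6252 and 13520 counts, or a mean of 162 TPM, far above any of the 7 genes, with a log2 fold change of -0.05. Cd93 stood at -0.07 and Flt3, a progenitor receptor, at -0.39 (SE 1.02), both with overlap. Flt3 had 6, 2 and 43 counts in PKM2FL/FL and 22, 12 and 6 in PKM2ΔMAC, so its negative sign rests on PKM2FL/FL 3. Sox4 and Cd24a, active in early B cells and elsewhere, stood at 0.19 and 0.63 without overlap in CPM. The edgeR adjusted p was 0.355 for Cd24a and larger for Cd93, Flt3 and Sox4. Among the factors, Spi1, which encodes PU.1, stood at 0.01, Id3 at 0.17 and Bcl11a at 0.56, all with overlap, and Irf8, a factor of both macrophages and B cells, at -0.17 (adjusted p = 0.232) without overlap. Pou2af1, the B-cell coactivator that works with octamer factors and is also on the plasma cell list, had 1, 8 and 8 counts in PKM2FL/FL and 16, 16 and 17 in PKM2ΔMAC, a log2 fold change of 1.49 (adjusted p = 0.474).

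In receptor signalling, the co-receptor Cd72 stood at 0.34 and the adaptor Pik3ap1 at 0.14, both without overlap and higher in PKM2ΔMAC. The phosphatase Ptpn6 at 0.11 and the scaffold Bank1 at -0.50 both overlapped, and the lowest edgeR adjusted p of the 4 was 0.388. Of all 19 tested signalling genes, 2 did not overlap with PKM2ΔMAC higher and 2 with it lower, beside 8.92% and 8.32% of all tested genes. The named plasma cell genes other than Pou2af1 overlapped, with Xbp1 at -0.07, Sdc1 at -0.04, Prdm1 at -0.05 and Derl3 at -0.46. Of all 6 tested plasma cell genes, 2 did not overlap, both with PKM2ΔMAC higher. Of the mature surface genes, Cd74, the invariant chain of MHC class II, stood at 0.01, Cd37 at -0.04, Tnfrsf13b at 0.05 and Ltb, encoding lymphotoxin beta, at -0.36, all with overlap. Fcrl5, an Fc receptor-like protein of mature and innate-like B cells, had 167, 121 and 103 against 315, 254 and 331 counts, at 1.20 (SE 0.20, adjusted p = 0.0594 by edgeR). It was called with no filter on low counts, by DESeq2 and without PKM2ΔMAC 2, where its adjusted p by the respective tool was between 1.46e-05 and 0.0116.

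Immunoglobulins are the product of B cells. The most abundant constant genes by TPM, Ighm, Igkc and Ighg2b, had log2 fold changes of 0.28, 1.79 and 1.82, and the largest changes were 3.40 for Ighg3 and 2.59 for Ighg1 (edgeR adjusted p between 0.340 and 0.764). The value of Ighg3 has an SE of 1.65, since it had 14, 36 and 0 counts in PKM2FL/FL and 73, 11 and 429 in PKM2ΔMAC, which overlap, and PKM2ΔMAC 3 alone holds most of them. All 10 tested constant-region and joining-chain genes had a positive log2 fold change, with a median of 1.80, 6 of them did not overlap, 6 had an unadjusted p under 0.05, and 0 were called by edgeR against 4 by DESeq2. Over all tested genes, 49.9% had a positive log2 fold change, 8.92% did not overlap with PKM2ΔMAC higher, 9.83% had an unadjusted p under 0.05 and 1.83% were called by DESeq2. The 5 rows of Ighg and Igha summed to 210, 368 and 175 counts in PKM2FL/FL and 906, 450 and 1791 in PKM2ΔMAC, without overlap. The 4 rows of Igkc and Iglc, the light chains, summed to 144, 436 and 305 against 928, 399 and 1694 counts, with PKM2ΔMAC 2 inside the control range. The 112 variable-segment rows summed to 199, 520 and 413 against 1158, 612 and 2004 counts. Ighm, the IgM heavy chain, was at 129, 135 and 147 TPM in PKM2FL/FL and 185, 126 and 211 TPM in PKM2ΔMAC, or between 31.0 and 65.1 times the TPM of Cd79b, the chain that pairs with IgM at the surface. The near-identical constant and variable genes can share reads, so single members are uncertain.

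The order of the immunoglobulin sums, PKM2ΔMAC 3 above PKM2ΔMAC 1 above PKM2ΔMAC 2, was not that of Cd79b, which was highest in PKM2ΔMAC 1 and lowest of its genotype in PKM2ΔMAC 3. Cd79a had 21, 14 and 12 counts in PKM2ΔMAC 3, 1 and 2, the same order, but 14 and 12 counts differ by no more than counting error. With the Ighg and Igha sum over the 6 libraries, r was 0.67 for Cd79b, 0.53 for Cd79a, 0.07 for Vpreb1, -0.03 for Blk, -0.07 for Ebf1, -0.32 for Ms4a1 and -0.68 for Pax5. Without PKM2ΔMAC 2, edgeR called 7 of the 73 other lineage genes, 0 of the 4 tested members and 1.77% of all tested genes. Ighm, Ighg1, Igha, Jchain and Fcrl5 were then called higher in PKM2ΔMAC, and Rasgrp3 and Ciita lower. Of these, Igha, Jchain, Rasgrp3 and Ciita were named after their values were seen. Ciita stood at -0.37 in that fit but at 0.03 with all libraries, where PKM2ΔMAC 2 was its highest library at 99.0 CPM.

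**Figure D4:**
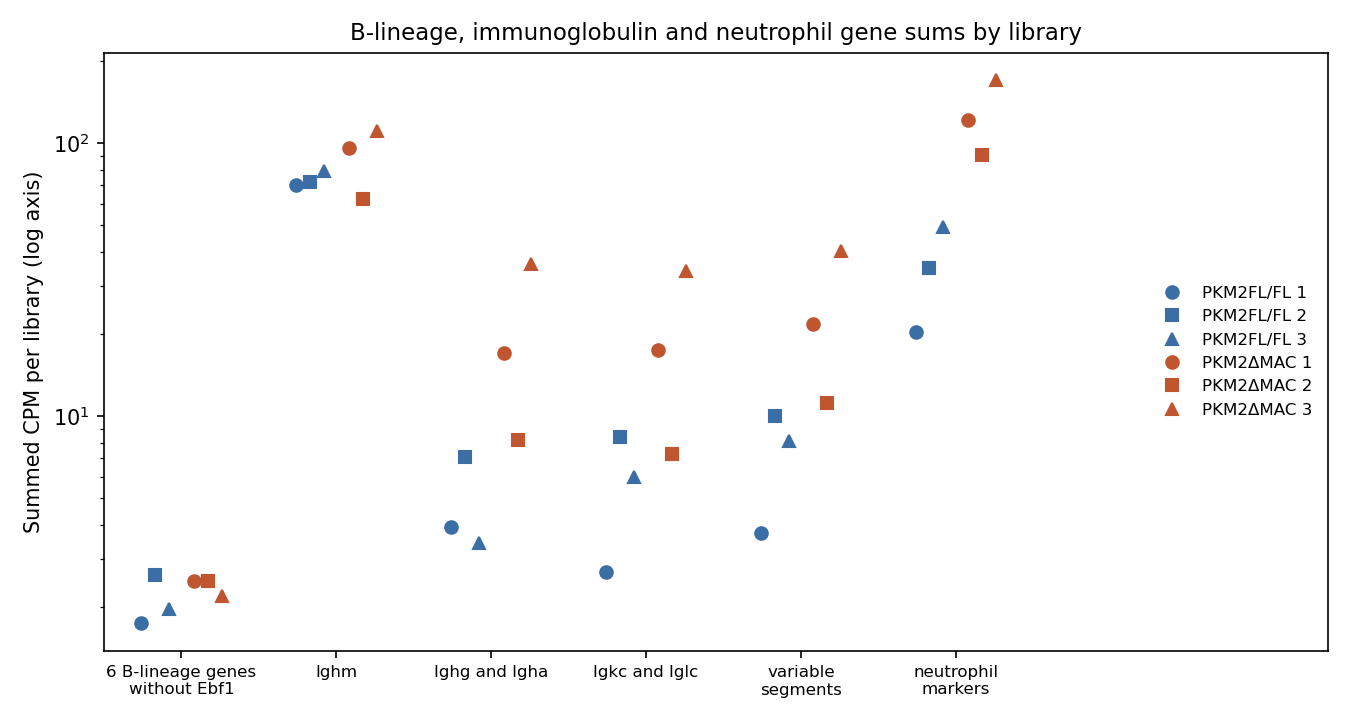
Summed CPM per library on a log axis for the 6 low B-lineage genes, Ighm, the Ighg and Igha rows, the Igkc and Iglc rows, the variable segments and 9 neutrophil markers; blue symbols are PKM2FL/FL and orange symbols PKM2ΔMAC. The 6 genes lie between 1.74 and 2.62 CPM in all libraries, whereas the variable segments run from 3.73 to 40.4 CPM.

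Markers of other cell types were read beside these values. The 9 neutrophil markers summed to between 20.3 and 49.5 CPM in PKM2FL/FL and between 90.2 and 170.2 CPM in PKM2ΔMAC, with 8 of 9 higher on average, 5 without overlap and 0 at or under the limit. Of all tested genes, 8.92% did not overlap with PKM2ΔMAC higher. Over the 7 B-lineage genes, r with the neutrophil sum ran from -0.51 for Pax5 to 0.72 for Cd79b. It was 0.49 for the 6 low genes together and 0.94 for the variable segments. For Ighg and Igha it was 0.85, for Igkc and Iglc 0.90 and for Jchain 0.86. All r in this paragraph pool 3 libraries of each genotype. The neutrophil sum, the variable segments, the Ighg and Igha sum and Jchain each did not overlap between genotypes, so r between them includes that shared difference. The stromal sum had r of 0.79 with Ighg and Igha, 0.78 with Igkc and Iglc and 0.79 with Jchain. It had r of 0.73 with the variable segments and 0.24 with the 6 low genes. Cell-cycle genes summed to between 486 and 500 CPM against between 598 and 805 CPM, and had r of 0.77 with Cd79b, 0.75 with Vpreb1, 0.51 with Ebf1, -0.26 with Pax5, -0.36 with Cd79a, -0.39 with Blk and -0.70 with Ms4a1. The part of neutrophil content, of stromal content and of cycling in these values was not tested. Stromal markers summed to between 5625 and 7143 CPM, with Col1a1, a collagen of fibroblasts, between 1040 and 1538 TPM and 59.6 to 103 times the TPM of Ebf1. Across libraries Ebf1 had r of -0.35 with the stromal sum, and its r with the 10 marker sums ran from -0.56 for T and NK cells to 0.82 for mast cells and basophils, with 0.79 for macrophages and 0.74 for plasmacytoid dendritic cells. T and NK cell markers lay between 10.5 and 21.4 CPM, almost all of it Cd4, plasmacytoid dendritic cell markers between 166 and 182 CPM, almost all of it Tcf4, and dendritic cell markers between 4.46 and 4.78 CPM. Erythroid markers lay between 2.62 and 4.32 CPM, mast cell and basophil markers between 3.16 and 8.05 CPM, and progenitor markers between 9.94 and 16.9 CPM.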

How the data were processed

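RNA of 6 BMDM cultures, 3 per genotype, was sequenced, each mouse giving 1 library. Tables deposited by the authors hold, for 23935 symbols, raw counts and TPM values; columns were matched to libraries by genotype and mouse number. The submitters' processing notes list FastQC 0.12.1, Trim Galore 0.6.10, HISAT2 2.2.1, SAMtools 1.19.2, Subread 2.0.6 and mm10, without their roles. The annotation and the strand setting are not given in the sources used here, and TPM depends on the gene lengths used. The lowest row total was 4 counts.

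Genotypes were compared with edgeR 4.0.16 under R 4.3.3 on the deposited counts ( filterByExpr, TMM, robust quasi-likelihood, Benjamini-Hochberg) over 16516 genes. Alternatives were DESeq2 1.42.0, limma 3.58.1 on TPM with a pseudocount of 1 or 0.1, other scaling and filters, a replicate block, each library left out, and halved counts, added after seeing the data. CPM values were scaled by TMM factors. Genes and lists were chosen with earlier results of these data known. Named were every listed gene, the 10 most correlated with their sum, and, in each other list, the 3 genes with the highest TPM and the 2 with the largest change; genes that only an alternative called were named after their values were seen. Positions came from GENCODE M21 on GRCm38, and functions were tested on simulated counts.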

Additional observations from a re-analysis of the deposited data

How the results depend on the processing

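None of the 4 tested B-lineage genes was called under any alternative that tested it, which was 16 for Cd79b and Ebf1, 14 for Cd79a and 13 for Vpreb1; limma with a mean TPM of at least 1 tested neither of the last pair. The number of genes called over the whole table was 68, and it was 302 with DESeq2, 120 with no filter on low counts, 41, 36 and 40 with limma on TPM, 82 with the replicate block, and between 22 and 299 with 1 library left out. Same-numbered libraries had small r, of 0.08, 0.14 and 0.02, but 5 of the 6 libraries correlated best with their own number. The r of differently numbered pairs ran from -0.12 to 0.07. Whether the replicate numbers pair the mice was not tested. Among the 73 other lineage genes, 0 were called, against 5 with DESeq2, 1 with no filter, 1 (Ighg1) with the replicate block and between 0 and 7 with 1 library left out. The median log2 fold change of the tested members, 0.32, was 0.0854 with at least 10 counts in every library, which leaves out Vpreb1, and that of the other genes, 0.002, was 0.0735, 0.0667 and 0.0746 with limma on TPM and between 0.0093 and 0.0203 with 1 library left out. With the limit at 10 counts, 25 in place of 38 of the 42 values exceeded it. The causes of these shifts were not tested. RLE and upper-quartile scaling turned the sign of none of the 4 fold changes. Halved counts, added after seeing the data, left 2 members tested, Cd79b and Ebf1. Counts under 25 limit what can be seen for 5 of the 7 genes, and with 3 libraries per genotype an exact permutation test of 1 gene cannot give a p below 0.10.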
